A study of Homo sapiens with 6 samples.

Results

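The RNA read across whole genes, introns included, was followed along chromosome 14 in RKO cells, a human colorectal cancer cell line, with and without added connexin 43 (Cx43, encoded by GJA1), a gap junction protein. The isoform table holds, besides the annotated transcripts, 1 entry per gene that carries the gene's own identifier and spans the gene from end to end, here called a whole-gene entry. Entries were taken whose locus starts on chromosome 14 in the stretch from about 22 to 106 Mb of hg19 and whose mean over the 6 libraries was at least 0.05 FPKM (fragment count scaled by feature length and library depth). This gave 436 entries of the 1504 whole-gene entries in that segment, of which 648 were listed at 0 in every library. In the whole series 12798 of 52414 whole-gene entries reached the same level. For 48 of the 436, the whole-gene entry is the gene's only isoform and does not tell introns from messenger RNA. The chromosome had been picked because its entries were higher with added Cx43 in these same libraries, so the counts and differences over the 436 entries are given as a description and support nothing by themselves.

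The series compares 3 libraries of control RKO cells, labelled EV for empty vector, with 3 libraries of RKO cells stably transfected with Cx43 cDNA in the vector pCDNA3.1 (OVER43), all from poly(A) RNA. The labels give no other agent, and do not say whether either line is 1 clone or a pool. Nor do they state that each library had a culture of its own, and the p-values below therefore measure only the spread between these libraries. A permutation of 3 against 3 libraries cannot give a two-sided p under 0.1, so the tests rest on limma, which pools the spread over all entries.

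RNA polymerase II copies exons and introns alike, and splicing then removes the introns. Poly(A) libraries hold mostly spliced messenger RNA, with a small part of unspliced or partly spliced RNA, and genomic DNA in the sample also reads across introns. Chromosome 14 is acrocentric, with ribosomal DNA repeats on its short arm and its protein-coding genes on the long arm. It carries genes for the HSP90AA1 chaperone, several proteasome subunits, the hypoxia factor HIF1A, the kinase AKT1 and the membrane protease MMP14.

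GJA1 stood at 23.2, 26.0 and 24.9 FPKM in OVER43 and at 0.300, 0.351 and 0.394 FPKM in EV. Of the epithelial markers, EPCAM averaged 20.5 FPKM in OVER43 and 12.5 in EV, KRT18 148 and 79.4, KRT8 24.6 and 58.7, and the intestinal factor CDX2 6.21 and 7.78. KRT20 was listed at 0, and CDH1 and VIL1 were near 0 in both groups. The leukocyte genes PTPRC and CD3E were listed at 0, and no fibroblast gene exceeded a mean of 0.471 FPKM. The steps between low FPKM values gave about 46200000 to 48800000 fragments for the OVER43 libraries, and 42100000 to 51600000 for the EV libraries. The 101 entries that share their locus with no other gene held a median of 179.3 fragments per library, and 12 of them held fewer than 10. The first principal component of all whole-gene entries (26.2% of the variance) separated the groups. The second (20.4%) split libraries within both groups, with EV library 2 at -75.9, OVER43 library 1 at -38 and the others from 1.8 to 40.5. In bulk RNA, fewer cells of a type and less RNA per cell cannot be told apart.

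The 250 bases before the start of the RefSeq gene were read for 271 of the 436 entries, and 4 of them are shown because the results turn on these genes. OXA1L and MMP14 lie near the proximal end of the segment and were higher in OVER43, and PAX9 and PYGL were among the few lower ones. Sequences are from RefSeq on GRCh38.p14, read 5′ to 3′ on the strand of the gene. Capitals mark GGGCGG (the core of an SP1 site) or CCAAT on either strand; TATAAA and GAANNTTC (a pair of heat shock units) were searched as well and are in none of the 4.
OXA1L (chr14:22766438-22766687, plus strand): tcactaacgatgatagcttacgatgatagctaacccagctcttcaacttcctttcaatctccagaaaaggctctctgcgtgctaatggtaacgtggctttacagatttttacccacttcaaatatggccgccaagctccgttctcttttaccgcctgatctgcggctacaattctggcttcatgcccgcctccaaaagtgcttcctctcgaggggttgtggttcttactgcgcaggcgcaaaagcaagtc
MMP14 (chr14:22836335-22836584, plus strand): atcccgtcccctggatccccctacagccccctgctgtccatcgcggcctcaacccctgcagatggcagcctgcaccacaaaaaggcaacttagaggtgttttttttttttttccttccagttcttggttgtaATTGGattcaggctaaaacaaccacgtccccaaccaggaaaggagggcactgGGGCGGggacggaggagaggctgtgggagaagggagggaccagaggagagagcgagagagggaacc
PAX9 (chr14:36657318-36657567, plus strand): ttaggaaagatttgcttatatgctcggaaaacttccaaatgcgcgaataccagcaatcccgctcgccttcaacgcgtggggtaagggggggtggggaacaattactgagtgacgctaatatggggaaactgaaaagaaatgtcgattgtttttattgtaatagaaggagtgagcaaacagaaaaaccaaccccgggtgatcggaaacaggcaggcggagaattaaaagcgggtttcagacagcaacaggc
PYGL (chr14:50944484-50944733, minus strand): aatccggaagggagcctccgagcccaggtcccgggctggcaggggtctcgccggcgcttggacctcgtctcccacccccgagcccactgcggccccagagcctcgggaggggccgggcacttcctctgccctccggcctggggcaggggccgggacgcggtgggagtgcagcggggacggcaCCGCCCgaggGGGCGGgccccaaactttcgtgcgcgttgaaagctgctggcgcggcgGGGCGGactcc
These windows differ in base composition, with 48.8% G and C in OXA1L, 56.8% in MMP14, 46.8% in PAX9 and 76.0% in PYGL, and with 12, 7, 13 and 27 CpG pairs. GGGCGG was found in 67.5% of the 271 windows of the chromosome 14 entries, against 68.4% of the 7343 windows of all tested entries and 42.3% of all 27305 windows in the RefSeq table. CCAAT was found in 36.5%, 35.3% and 33.0% of the same sets, TATAAA in 2.95%, 4.74% and 11.1%, and GAANNTTC in 4.43%, 3.75% and 5.85%. Among the entries with a window, GGGCGG was in 39 of the 60 that rose and in 4 of the 7 that fell. A match is only a description of these letters in this window.

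Along almost the whole segment the whole-gene entries were a little higher in OVER43 than in EV. The median over the 436 entries was 0.195, 0.206 and 0.188 FPKM in the OVER43 libraries and 0.174, 0.163 and 0.168 FPKM in the EV libraries. Every OVER43 library was above every EV library. On the log2(FPKM + 0.01) scale, used throughout for whole-gene entries, the median difference of OVER43 from EV was 0.29, with quartiles of 0.05 and 0.54. The same median over all 12793 tested entries was -0.12, and over the entries that are not among the 436 it was -0.13. The chromosome 14 entries were thus 0.42 above the rest, a ratio of 1.34, made up of a ratio of 1.23 on chromosome 14 and of 0.91 elsewhere. This scale understates the change of entries near 0.01 FPKM.

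By limma's test, with p-values adjusted over all 12793 entries by Benjamini-Hochberg and a threshold of 0.05, 78 of the 436 entries rose in OVER43 (17.9%) and 8 fell (1.83%). The background over all tested entries was 2.99% higher and 9.84% lower. The groups did not overlap in 192 entries with OVER43 above and in 22 with OVER43 below, against a background of 10.3% and 27.9%. In all, 344 entries had a positive difference, and 84 had a negative difference that did not pass the test. Leaving out any 1 library cut the count of higher calls to 27, 30 and 30 without OVER43 library 0, 1 and 2, and to 22, 21 and 26 without EV library 0, 1 and 2. In these fits 4.82% to 6.88% of the 436 entries and 1.00% to 1.32% of all entries were higher. The count of lower calls became 0, 3 and 3 without OVER43 library 0, 1 and 2. It was 0 by limma without any 1 EV library, with 16, 12 and 10 lower at an unadjusted p under 0.05 without EV library 0, 1 and 2; without OVER43 library 0 that number was 14. The median difference stayed between 0.27 and 0.30.

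The counts also depended on how the libraries were scaled to each other. The FPKM sums were 554456 to 566947 in OVER43 and 500546 to 509175 in EV, while the median log2 value off chromosome 14 was -2.47 to -2.45 in OVER43 and -2.33 to -2.30 in EV. With the deposited scaling 23.3% of all calls in the genome were higher. That share was 8.97% with equal FPKM sums, 16.1% with TMM, 39.3% with quantile scaling and 52.2% with equal medians off chromosome 14. In the same order, 49, 65, 103 and 125 of the 436 entries rose and 14, 8, 2 and 2 fell. Over all 12793 entries, 2.08%, 2.51%, 3.38% and 5.48% rose and 2700, 1673, 666 and 643 entries fell. The median over all entries moved with the scaling, to -0.25, -0.17, 0.01 and 0.03. The gap of 0.42 between the chromosome 14 entries and the rest was the same under these scalings, which is no sign of stability, since 3 of the 4 multiply each library by 1 factor, which shifts nearly all entries alike. The gap was 0.28 with a pseudocount of 0.1. It was 0.35 when the filter on low values was lifted for the rest while the same 436 entries were kept. With the filter lifted for the segment too, the segment's median was only 0.11, beside -0.05 over all 27421 entries.

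**Figure D1:**
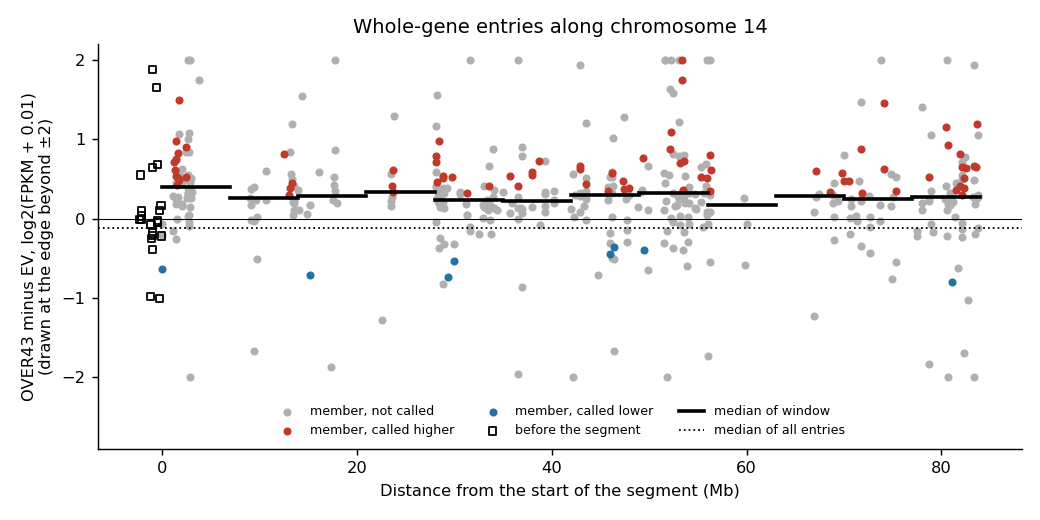
Difference of OVER43 from EV (log2(FPKM + 0.01), vertical axis) for each of the 436 whole-gene entries against distance from the start of the segment in Mb, with entries that passed limma's test in colour, the 22 entries before the segment as open squares, the median of each of the 12 windows as a bar and the median of all entries as a dotted line. The window medians lie between 0.17 and 0.40, above the dotted line at -0.12.

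The segment was cut into 12 windows of 7 Mb. The median difference was largest in the first window at 0.40 over 58 entries, and lowest in the ninth, from 77.9 to 84.9 Mb, at 0.17 over 12 entries. The other 10 windows ranged from 0.22 to 0.34. Each library was then set against the mean of the EV libraries, an EV library against the other 2. The OVER43 libraries had window medians from 0.167 to 0.476 and the EV libraries from -0.092 to 0.174. In 11 of the 12 windows every OVER43 library was above every EV library; the exception was the third, which holds 14 entries. Off chromosome 14 the OVER43 libraries stood at -0.115, -0.115 and -0.136 by the same measure.

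**Figure D2:**
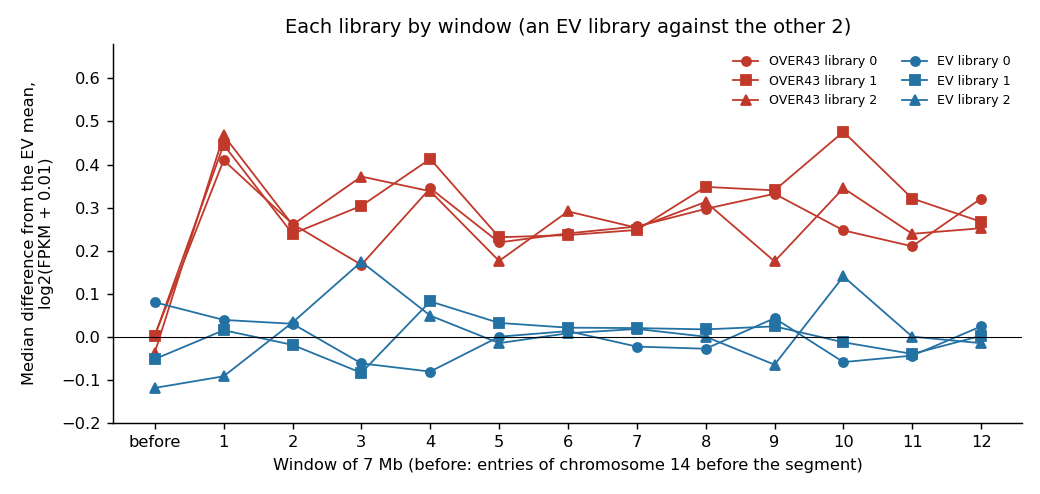
Median difference of each library from the mean of the EV libraries (log2(FPKM + 0.01), vertical axis) in the 22 entries before the segment and in each of the 12 windows, with 1 line per library and each EV library set against the other 2. The OVER43 lines run between 0.167 and 0.476 within the segment and near 0 before it, while the EV lines run between -0.092 and 0.174 within it.

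At the proximal end the first entries did not rise. Before the segment, 22 entries of chromosome 14 had a median difference of -0.02, with 1 higher by limma, an entry without a current symbol at 0.55, and 2 lower, TTC5 at -0.98 and LINC00641, all named after their values were seen. These shares of 4.55% higher and 9.09% lower were near the 2.99% and 9.84% over all tested entries. The last 3 entries before the segment were HNRNPC, an RNA-binding protein, at 0.10, the histone chaperone SUPT16H at 0.17 and the chromatin remodeller CHD8 at -0.22, none of which passed the test. In spliced RNA, the sum of a gene's other isoforms, 6 of 15 tested genes before the segment rose by limma and the other 9 did not pass (median 0.11), with HNRNPC at 0.26 and SUPT16H at 0.35. Over all tested genes 29.5% of spliced values rose and 17.5% fell by limma. The first 3 entries inside share 1 locus at chr14:21927179-21979517 (hg19): TOX4 at -0.21, the small GTPase RAB2B at -0.63 and the RNA methyltransferase METTL3 at -0.06. Of these only RAB2B passed the test, and it was lower in OVER43. The next 1.05 Mb, up to the start of the DAD1 locus at position 23033805, holds 140 whole-gene entries, none above a mean of 0.0245 FPKM. DAD1, a subunit of the oligosaccharyltransferase, had a difference of 0.29 (adjusted p = 0.178 by limma), and its neighbour ABHD4 -0.16. The first entry to rise was OXA1L, followed by MRPL52 and MMP14. At the distal end the last locus held BTBD6 at 1.06 and the RNA polymerase III factor BRF1 at 0.30 (adjusted p = 0.196 and 0.102 by limma). Without EV library 0 the difference of BTBD6 was 0.55. No entry of at least 0.05 FPKM lay beyond the segment.

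OXA1L inserts proteins into the mitochondrial inner membrane, and its entry lies in a locus of 5 genes at chr14:23171352-23241007 (hg19). It stood at 2.12, 1.69 and 1.92 FPKM in OVER43 and at 1.04, 1.34 and 1.12 FPKM in EV. The groups did not overlap, and the difference was 0.71 ± 0.13 (SE, n = 3 per group; limma adjusted p = 0.0312). MMP14, the membrane-type matrix metalloproteinase, is alone in its locus at chr14:23305766-23318236 (hg19). It stood at 0.440, 0.503 and 0.303 FPKM in OVER43 and at 0.191, 0.195 and 0.220 FPKM in EV. OVER43 library 2 was the lowest of its group but still above EV, and the difference was 0.98 ± 0.20 (SE; limma adjusted p = 0.0387).

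The highest entry of the chromosome was PNMA1, a paraneoplastic antigen, at chr14:74178494-74181128 (hg19), whose whole-gene entry is its only isoform and so is no measure of introns. It stood at 60.4, 60.8 and 60.3 FPKM in OVER43 and at 28.0, 27.8 and 29.3 FPKM in EV. All OVER43 libraries were thus about equal and well above EV, with a difference of 1.09 ± 0.05 (SE; limma adjusted p = 0.00101). ARF6, a GTPase of membrane recycling at chr14:50359810-50361490 (hg19), stood at 18.7, 17.6 and 16.9 FPKM in OVER43 and at 11.2, 8.73 and 7.48 FPKM in EV. Here the EV libraries spread more than the OVER43 libraries, without overlap, and the difference was 0.98 ± 0.16 (SE; limma adjusted p = 0.0213). MGAT2, a Golgi glycosyltransferase with a single isoform, did not pass: OVER43 library 2 was at 17.6 FPKM, under all EV libraries, while OVER43 libraries 0 and 1 were at 37.6 and 41.1.

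The largest differences among entries that passed without overlap belonged to small or shared loci. PROX2, a homeobox factor in a locus of 3 genes, rose by 1.75 on the log2 scale (limma adjusted p = 0.00586), although its spliced isoforms were listed at 0 in every library. PPP1R3E, a regulatory subunit of protein phosphatase 1, lies in a locus of 10 genes; it stood at 1.99, 1.81 and 2.10 FPKM in OVER43 and at 0.696, 0.699 and 0.673 FPKM in EV. Its difference was 1.50 (limma adjusted p = 0.0018), with no overlap. The antisense gene SNHG10 rose by 1.45, the long non-coding RNAs LINC02298 and AL118558.4 by 1.19 and 1.15 (limma adjusted p = 0.0225, 0.0449 and 0.00953). No source used here gives the strand of the reads, so those of antisense or overlapping genes cannot be assigned to 1 gene. An entry without a current symbol in the PROX2 locus was at 3.22 (limma adjusted p = 0.0428) but averaged only 0.0117 FPKM in EV. It passed the filter through its OVER43 mean alone and is named after its value was seen. In all, 7 entries, this one included, rose by at least 1 on the log2 scale, and the median of the 78 was 0.56.

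**Figure D3:**
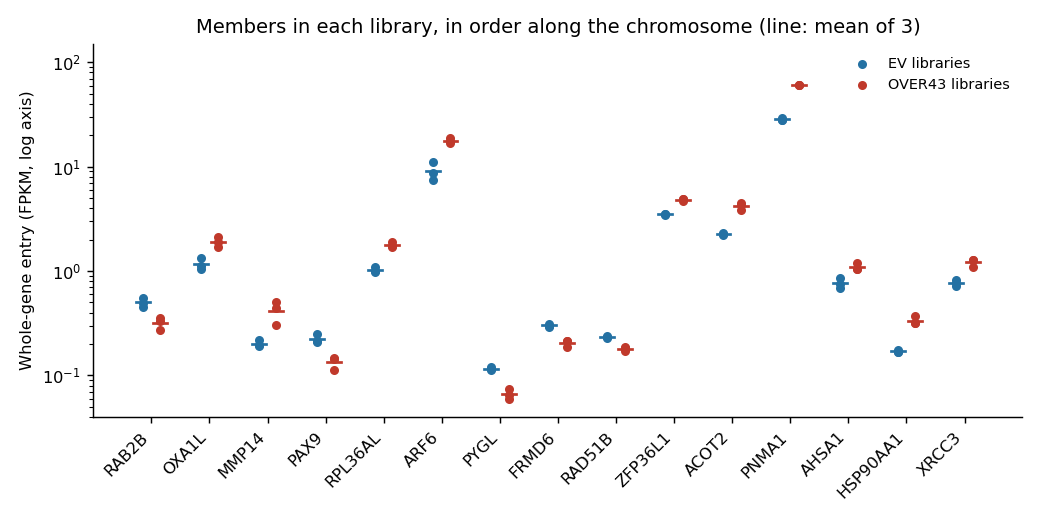
FPKM of 15 whole-gene entries in each of the 6 libraries (log axis), in order along the chromosome, with points for libraries and a line for the mean of 3. RAB2B, PAX9, PYGL, FRMD6 and RAD51B are lower in OVER43, and the other 10 are higher.

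The members were next grouped by function, with 151 of them in 8 lists chosen with earlier results of these data known. Over these 151 entries 37 rose (24.5%), 5 fell (3.31%) and the median difference was 0.28. Of the 306 protein-coding entries of the segment 22.5% rose and 2.29% fell, with a median of 0.30. Over all tested protein-coding entries 2.97% rose and 11.6% fell. At an unadjusted p under 0.05 by limma, 134 of the 306 were higher and 10 lower, beside 712 and 2313 of all 8752 tested protein-coding entries. The counts of single lists below stand beside these shares and are not read as a trait of any function. In protein folding and the proteasome, 5 of 21 rose and 0 fell (median 0.33), with 9 higher and 0 lower at an unadjusted p under 0.05 by limma. HSP90AA1, the stress-inducible cytosolic HSP90, stood at 0.367, 0.317 and 0.319 FPKM in OVER43 and at 0.177, 0.169 and 0.169 FPKM in EV, a difference of 0.92 ± 0.08 (SE; limma adjusted p = 0.00619). All OVER43 libraries were above all EV libraries. Its co-chaperone AHSA1, the prolyl isomerase FKBP3 and the proteasome subunits PSMB5 and PSMC6 rose by 0.51, 0.41, 0.42 and 0.33.

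RNA processing and translation had the highest median of the lists, 0.34, and a positive difference in all 23 entries. Of these, 6 rose and 0 fell, with 13 higher and 0 lower at an unadjusted p under 0.05 by limma. RPL36AL, a protein of the large ribosomal subunit, stood at 1.89, 1.73 and 1.71 FPKM in OVER43 and at 1.09, 1.00 and 0.989 FPKM in EV. The groups were far apart, with a difference of 0.78 ± 0.08 (SE; limma adjusted p = 0.00763). The initiation factors EIF5 and EIF2B2 rose by 0.82 and 0.73, the mitochondrial ribosomal protein MRPL52 by 0.62, the poly(A)-binding ZC3H14 by 0.60 and the mitochondrial mRNA-binding SLIRP by 0.35.

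In cell division, replication and repair, 7 of 20 rose and 1, RAD51B, fell (median 0.25). The Fanconi anaemia helicase FANCM, the recombination factor XRCC3, the apoptosis regulator SIVA1 and LRR1 rose by 0.61, 0.65, 0.67 and 0.72, and the kinase VRK1 and the DNA repair enzyme TDP1 by 0.35 and 0.34. In transcription and chromatin, 5 of 21 rose and 1, PAX9, fell (median 0.32). The arginine methyltransferase PRMT5 rose by 0.75, ZBTB1 by 0.63, YY1 by 0.53, MAX, the partner of MYC, by 0.44, and ZFP36L1, which promotes decay of AU-rich mRNAs, by 0.47. ZFP36L1 stood at 4.93, 4.88 and 4.74 FPKM in OVER43 and at 3.44, 3.50 and 3.52 FPKM in EV (limma adjusted p = 0.00974). Its libraries lay close together within each group and did not overlap.

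In membrane traffic and the cytoskeleton, 7 of 22 rose and 1, RAB2B, fell (median 0.26). Those that rose include ARF6, the Golgi-binding TRIP11 at 0.48, the actin crosslinker ACTN1 at 0.37 and the kinesin light chain KLC1 at 0.29. In metabolism and mitochondria, 4 of 23 rose and 1, PYGL, fell (median 0.24). Those that rose were the folate enzyme MTHFD1 at 0.66, the α-ketoglutarate dehydrogenase subunit DLST at 0.37, the proton pump subunit ATP6V1D at 0.34 and ACOT2, a mitochondrial thioesterase, at 0.88. ACOT2 has a near-identical neighbour, ACOT1, so its reads are uncertain. In signalling, 2 of 16 rose, the kinases MARK3 at 0.41 and CDC42BPB at 0.36, and 1, FRMD6, fell (median 0.24). Of 5 entries for matrix, proteases and inhibitors only MMP14 rose, and none of the 5 imprinted genes of the DLK1-DIO3 region in the table reached 0.05 FPKM. In these lists, entries outside the naming rule are given because they passed the test.

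Several well-known genes of the chromosome did not pass. AKT1 had a difference of 0.48 ± 0.12 (SE; limma adjusted p = 0.0601), without overlap between the groups. NFKBIA, the inhibitor of NF-κB, was at 0.35 ± 0.27 (SE; adjusted p = 0.440), HIF1A at 0.20 ± 0.13 (SE; adjusted p = 0.358) and the microRNA-processing enzyme DICER1 at 0.18 ± 0.12 (SE; adjusted p = 0.385), all by limma and all with overlapping groups. JAG2, a Notch ligand, stood at 0.427, 0.410 and 0.339 FPKM in OVER43 and 0.428, 0.430 and 0.411 FPKM in EV, and its groups overlapped.

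The 8 entries that fell were spread over the segment and belonged to genes of different roles. Only PYGL and FRMD6 kept their calls with equal medians off chromosome 14 and with quantile scaling. PYGL, the liver form of glycogen phosphorylase, lies in a locus of 4 genes at chr14:51314840-51411454 (hg19). It stood at 0.0643, 0.0591 and 0.0748 FPKM in OVER43 and at 0.119, 0.116 and 0.113 FPKM in EV. Every OVER43 library was below every EV library, by -0.73 ± 0.10 on the log2 scale (SE; limma adjusted p = 0.0163). PAX9, a paired-box factor, stood at 0.113, 0.147 and 0.143 FPKM in OVER43 and at 0.251, 0.214 and 0.208 FPKM in EV, a difference of -0.71 ± 0.13 (SE; limma adjusted p = 0.0303). The deposited locus of PAX9, chr14:37116288-37643016 (hg19), holds 8 genes. FRMD6, a FERM domain protein upstream of the Hippo pathway, fell by 0.54 (limma adjusted p = 0.017), without overlap between the groups.

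The long recombination gene RAD51B stood at 0.183, 0.189 and 0.171 FPKM in OVER43 and at 0.232, 0.230 and 0.240 FPKM in EV. The values were tight within each group, and the difference was -0.35 ± 0.07 (SE; limma adjusted p = 0.0307). RAB2B fell by 0.63, PLEKHH1 by 0.45, the membrane protein PCNX1 by 0.39 and LINC02323 by 0.80 (limma adjusted p = 0.039, 0.039, 0.0405 and 0.0493). PCNX1 is named after its value was seen. With equal medians off chromosome 14, RAD51B stood at -0.21, PAX9 at -0.56, RAB2B at -0.49, PLEKHH1 at -0.30 and LINC02323 at -0.66 (limma adjusted p = 0.131, 0.0624, 0.0807, 0.0947 and 0.0855). LINC02323 is a low entry, with 0.0587 FPKM in OVER43 and 0.108 FPKM in EV.

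Among kinds of genes, the median difference was 0.30 over the 306 protein-coding entries, 0.26 over 42 antisense entries, 0.31 over 42 pseudogenes and 0.23 over 23 long intergenic non-coding RNAs. Of the protein-coding entries 69 rose and 7 fell, of the antisense entries 3 rose and 0 fell, and of the intergenic RNAs 5 rose and 1 fell. Over all tested entries of these kinds, 2.97%, 2.89% and 4.81% rose and 11.6%, 6.32% and 8.22% fell. The antisense genes that rose were SNHG10, PSMA3-AS1 at 0.41 and DHRS4-AS1 at 0.90, and the intergenic RNAs were AL118558.4, LINC02298, AC004816.1 at 0.76, AC013451.2 at 0.70 and AL359397.2 at 0.51. Limma called 0 of the 42 pseudogenes in either direction, near the 1.77% higher and 3.79% lower over all tested pseudogenes. At an unadjusted p under 0.05 by limma, 0 pseudogenes were higher and 1 was lower, and 1 antisense entry was lower. By the same measure 71 of all 1187 tested pseudogenes were higher and 109 lower, and 191 of all 1281 tested antisense entries were lower. Pseudogenes such as RPL3P4, averaging 24.5 FPKM in OVER43 and 27.3 FPKM in EV, share sequence with their parent genes, and their counts are uncertain. The 101 entries alone in their locus had a median of 0.29, with 22 rising and 1 falling, and the 335 in shared loci one of 0.30, with 56 rising and 7 falling. Over all tested entries, 3.17% of those alone in their locus rose and 9.98% fell. Of those in shared loci, 2.91% rose and 9.78% fell. The 48 entries that are the only isoform of their gene had a median of 0.39, with 2 rising and 0 falling. The other 388 had one of 0.29, with 76 rising and 8 falling. Over all tested entries, 3.75% of only isoforms rose and 3.18% fell, beside 2.89% and 10.8% of the others.

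Higher calls became more frequent with the level of the entry, on chromosome 14 as over all tested entries. Of 113 entries with a mean of 0.05 to 0.1 FPKM, 5 rose, ADCK1, CCDC88C, PPP1R13B, C14orf178 and an entry without a symbol, and 2 fell, PYGL and LINC02323. Of 118 at 0.1 to 0.2 FPKM, 13 rose and 2 fell, PAX9 and PCNX1. Of 159 at 0.2 to 1 FPKM, 43 rose and 4 fell. Of 46 at 1 FPKM or more, 17 rose and 0 fell. At an unadjusted p under 0.05 by limma 3 of these 46 were lower, beside 198 of all 1158 tested entries of that level. Over all tested entries of the same 4 levels, 1.21%, 1.53%, 3.60% and 9.84% rose and 8.28%, 11.3%, 10.1% and 8.46% fell. The median differences of these classes were 0.20, 0.25, 0.33 and 0.41, beside -0.20, -0.15, -0.08 and 0.06 over all tested entries of the same levels. By gene length the medians fell from short to long genes, with 0.41 for genes under 10 kb, 0.30 for 10 to 50 kb and 0.22 for 50 kb or longer, beside 0.00, -0.11 and -0.19 over all entries. The median standard error was 0.20 under 0.1 FPKM and 0.14 at 1 FPKM or more.

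At the threshold of 0.05 FPKM, the entries just inside were NGDN, BBOF1 and ISCA2, with means of 0.0501, 0.0504 and 0.0506 FPKM and differences of 0.62, 0.32 and 1.21. None of them passed the test, and ISCA2 was at 0.40 without EV library 2 and at 0.77 without OVER43 library 0. With a pseudocount of 0.1 the 3 differences were 0.24, 0.13 and 0.39. Just outside were FITM1, AL135838.1 and ENTPD5, with means of 0.0499, 0.0491 and 0.0487 FPKM and differences of 0.02, -0.52 and -0.42. Both group means reached 0.05 FPKM in 390 entries. Another 33 passed through the OVER43 mean alone and 13 through the EV mean alone. The filter thus let in entries of both directions, more of them higher in OVER43. With both means required, the median difference was 0.28, against -0.10 over all such entries. In that fit 73 of the 390 entries rose and 7 fell, and all 73 were among the 78 called higher in the main fit. The share that rose was 18.7%, against 2.94% over all such entries.

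The spliced RNA of the same genes was read as the sum of a gene's other isoforms. It is estimated from the same fragments of the same libraries as the whole-gene entry and is no independent measure. For the 295 entries with a mean spliced value of at least 1 FPKM, the median in EV was 17.4 FPKM spliced against 0.172 FPKM for the whole gene. On the log2(FPKM + 1) scale the spliced values differed by a median of 0.49, beside 0.06 over all 11369 tested genes. By limma 233 of the 295 rose and 4 fell, beside a background of 29.5% higher and 17.5% lower. Another 92 genes of the segment had a tested spliced value without a whole-gene entry among the 436, and 43 of these rose and 15 fell.

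HSP90AA1 had the highest spliced level among the genes described, at 1510, 1505 and 1575 FPKM in OVER43 and 676, 682 and 666 FPKM in EV. The groups were far apart, with a difference of 1.18 ± 0.03 (SE; limma adjusted p = 3.05e-08). Spliced RPL36AL, OXA1L, MMP14 and ARF6 rose by 0.95, 0.89, 0.99 and 1.02, close to their whole-gene differences of 0.78, 0.71, 0.98 and 0.98. Spliced AKT1, DICER1, HIF1A and NFKBIA rose by 0.76, 0.57, 0.39 and 0.35 where their whole-gene entries had not passed. In JAG2 the spliced value rose by 0.70, while its whole-gene entry was at -0.11.

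Of the 295 genes, 240 had a positive difference in both values, 14 a negative one in both, 33 a negative whole-gene and a positive spliced one, and 8 the reverse. Across these genes Pearson's r was 0.40 and Spearman's rho 0.52, beside 0.53 and 0.59 over all 8717 entries with both values; genes of 1 library set are not independent, and both values share fragments and scaling. Both values rose in 64 genes and both fell in 2, PYGL and RAB2B. Spliced PYGL stood at 31.0, 29.8 and 31.5 FPKM in OVER43 and 38.9, 38.3 and 38.8 FPKM in EV, a fall without overlap (-0.32; limma adjusted p = 0.000474). In RAD51B and PCNX1 the whole-gene entry fell and the spliced value rose, by 0.53 and 0.38 (limma adjusted p = 0.0108 and 0.00109). The spliced values of PAX9, FRMD6 and PLEKHH1 did not pass the test, at 0.18, 0.08 and -0.60. The other spliced values that fell were those of the arginase ARG2 (-0.50) and IFI27L1 (-0.41), named after their values were seen, and their whole-gene entries did not pass.

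**Figure D4:**
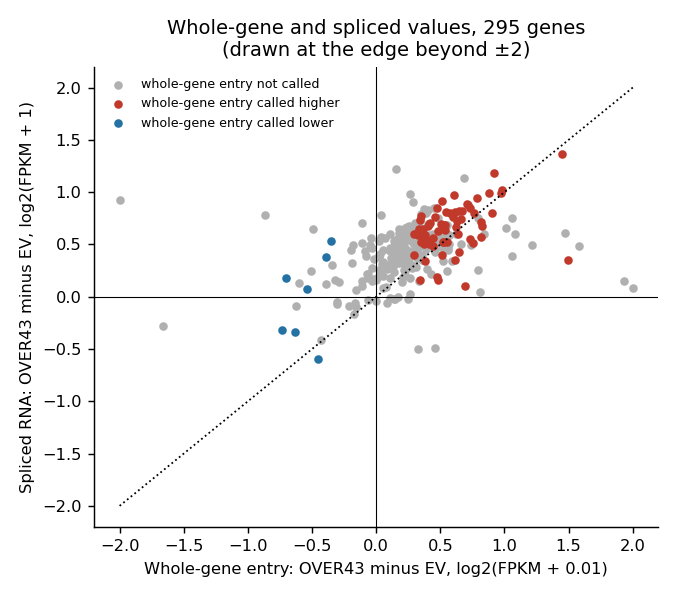
Difference of OVER43 from EV in spliced RNA (log2(FPKM + 1), vertical axis) against that in the whole-gene entry (log2(FPKM + 0.01), horizontal axis) for the 295 genes with both values, coloured by the whole-gene call. The upper right part holds 240 genes, and RAD51B and PCNX1 lie in the upper left.

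Among chromosomes, 14 had the highest median difference of whole-gene entries, 0.28 over its 458 entries, and chromosome 9 the lowest, -0.40 over 551 entries, of which 7 rose and 177 fell. Chromosome 12 followed with -0.25 over 702 entries, of which 16 rose and 125 fell. The other chromosomes, X included, ranged from -0.19 to 0.03. These are descriptions of the same 6 libraries, and whether the chromosomes' medians differ was not tested.

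**Figure D5:**
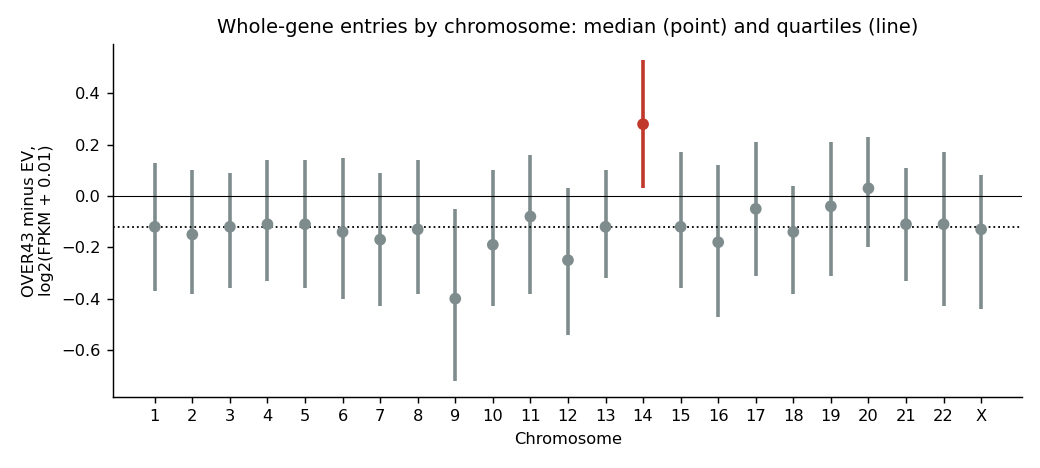
Median (point) and quartiles (line) of the difference of OVER43 from EV in whole-gene entries (log2(FPKM + 0.01), vertical axis) for each chromosome. Chromosome 14 lies highest at 0.28 and chromosome 9 lowest at -0.40, with the other chromosomes between -0.25 and 0.03.

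In the authors' deposited table, 215 of the 436 entries had been tested by Cuffdiff, and 8 had a q-value under 0.05 with OVER43 higher and 3 with EV higher. The background in the authors' deposited table was 1.91% higher and 4.03% lower over 6323 tested whole-gene entries. The q-values in the authors' deposited table were 0.0021 for PNMA1, ACOT2 and RAD51B, 0.0275 for ARF6 and 0.0217 for FRMD6, all in the direction given above. The third entry lower in OVER43 in the authors' deposited table was IFI27L1, with a q-value of 0.034.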

How the data were processed

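Poly(A) RNA of RKO cells went into Illumina TruSeq libraries, per the labels' protocols. The FPKM values per library are the authors', from Cuffdiff (no version named in the submitters' processing notes), with Cuffdiff's test columns: a log2 fold change, a test statistic (a score), p-values and q-values, per the file headers. The aligner is not given in the sources used here, nor is the use of strand. The notes name hg38, but the deposited loci are hg19: the GRCh38 annotation of GENCODE 29 holds 44222 of the gene identifiers, and 232 of these have an equal start or end there while 7323 overlap. Coordinates of loci are those of the deposited table, and GENCODE 29 gave symbols for 423 of the 436 entries and all gene types.

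The members, the gene lists and the tests were chosen with earlier results of these data known. The plan allowed for counts; the table holds FPKM, so the test for FPKM was used. Whole-gene entries with a mean of at least 0.05 FPKM were tested with limma 3.58.1 (R 4.3.3) with its trend and robust options, on log2(FPKM + 0.01), group as the only term, two-sided, adjusted over all 12793 entries. Spliced values used log2(FPKM + 1) and a mean of at least 1 FPKM. Over the whole table, 13 whole-gene entries without an estimate were left out. The procedure was tested on simulated data.

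Column names give the group and a number from 0 to 2, where the labels number replicates 1 to 3, so each column was tied to its group but to no numbered sample, and 0 per-library columns were left unused. Fragment numbers come from the steps between low values (96.7% to 98.2% whole within 0.15). Libraries of a group differed by more than sampling noise (chi-square per entry of 3.38 to 6.22), so none was merged. Named entries are the 2 highest in each window with a symbol, the 6 largest differences each way among called entries without overlap, the 2 highest of each list and its lower calls, 3 entries on each side of each limit, and HSP90AA1, MMP14, BMP4 (no entry reached 0.05 FPKM), HIF1A, NFKBIA, DICER1 and AKT1. Of these 61 the text describes the main ones, and entries outside the rule are named where a small count or a group calls for them. Alternatives varied the pseudocount, filter, scaling, limma's options, the kinds of entries, a block by column number and each library left out. Some items are not reported here.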

Additional observations from a re-analysis of the deposited data

How the results depend on the processing

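The higher calls numbered 78 and the lower calls 8 among the 436 entries, with a median difference of 0.29. With equal FPKM sums they were 49 and 14 (median 0.16), with equal medians off chromosome 14 they were 125 and 2 (median 0.44), and with quantile scaling 103 and 2 (median 0.41). TMM gave a median of 0.24 and pseudocounts of 0.1 and 0.001 gave 0.20 and 0.31. Without a filter the median over all the segment's tested entries, not only the 436, was 0.11, with 52 higher and 8 lower. Of the 436 entries themselves, 51 were higher and 3 lower in that fit. Over all 27421 entries of that fit 277 (1.01%) were higher and 1099 lower. A minimum of 0.2 FPKM gave 61 higher and 2 lower of 205 (median 0.34), with fewer entries tested. Over all 6049 entries of that fit 300 (4.96%) were higher and 600 lower. Entries alone in their locus, fitted by themselves, gave 18 higher and 0 lower of 101 by limma, with 32 and 5 at an unadjusted p under 0.05. Over all 4099 entries of that fit 124 (3.03%) were called higher and 369 lower. Entries with a spliced isoform less than 0.5 times their length, fitted by themselves, gave 97 higher and 8 lower of 362. The fit of all entries called 74 of the same 362 higher. Over all 10311 entries with such an isoform, fitted by themselves, 424 (4.11%) were higher and 1564 lower. Leaving out 1 library gave 21 to 30 higher and 0 to 3 lower calls, and 221 to 227 higher and 3 to 4 lower spliced values. Spliced values without a filter gave 218 higher and 2 lower.

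The column numbers are not stated to pair the libraries, and same-numbered libraries did not deviate together (correlations of 0.02, 0.002 and 0.005). With a replicate block by column number limma called 0 entries higher and 0 lower, with 136 and 11 at an unadjusted p under 0.05, and 227 spliced values higher and 3 lower. That fit called 1 entry higher and 2 lower among all 12793. Over the 61 named entries and all alternatives, 1090 values held 0 reversals of a called entry, 162 calls lost and 20 gained. Why calls changed was not tested, beyond the fewer entries or libraries that some alternatives use. The median standard error of the 436 entries was 0.20 under 0.1 FPKM and 0.14 at 1 FPKM or more.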
